A study of Homo sapiens with 4 samples.

Results

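The mitochondrial ribosome makes the few proteins that the mitochondrial genome encodes, all of them subunits of the respiratory chain and ATP synthase. Its RNAs come from mitochondrial DNA, but every one of its proteins is encoded in the nucleus, made in the cytosol and imported. In Hep-G2, an established line from a human liver tumour, the genes for the proteins of its large subunit (symbols beginning MRPL) and small subunit (MRPS) were followed here as transcripts. Members were all protein-coding genes whose symbol is MRPL or MRPS followed by a digit. The rule gave 78 symbols, 49 of the large and 29 of the small subunit, and 77 of them were matched to identifiers among the 62893 genes listed. MRPL45 was not matched and was not analysed here.

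RNA sequencing compared Hep-G2 cells carrying a scramble shRNA (SHC002) with cells carrying an shRNA against FTO (TRCN0000246247), which encodes an RNA demethylase acting on N6-methyladenosine. All cells were at passage 21, 1 shRNA was used per group, and nothing in the labels says whether a group was 1 clone or came from separate cultures. Each group has 2 count tables, numbered as replicates in the labels and called run 1 and run 2 here, which held 20047409 to 20706611 gene-assigned reads. Within a group the tables agreed within sampling noise, with a chi-square per degree of freedom of 1.019 for scramble and 1.013 for shFTO against 118.5 and 120.4 between groups. They were therefore pooled and counted as 1 sample, so the comparison is of 1 sample with 1 sample and no p-value is given for a gene. Reads on FTO itself numbered 594 and 550 for scramble and 116 and 128 for shFTO, 5.32-fold lower (95% interval 4.63 to 6.13). Every interval given is an exact Clopper-Pearson interval computed on pooled reads, which covers counting error only. All 10 hepatocyte markers examined were detected, with a summed level of 36160 to 36210 CPM (reads relative to library size after TMM scaling, which sets libraries to a common trimmed mean) in scramble and 15590 to 15670 CPM in shFTO. All 10 were at least 1.2-fold lower in shFTO, as were 27.5% of all tested genes. They ran from HNF4A, 1.32-fold lower (1.283 to 1.355), to AFP, 71.3-fold lower (67.4 to 75.4). Of 12 markers of fibroblasts, endothelium and immune cells, COL3A1, PECAM1, KDR, PTPRC and CD3E had no read, and the 12 summed to 27.1 and 27.7 CPM for scramble and 8.88 and 8.89 CPM for shFTO. These 12 did not move together: PDGFRB, which made up most of their sum, went from 23.3 to 3.62 CPM, while COL1A1 went the other way, from 2 and 3 reads to 61 and 74. The part of these shifts in the members' values was not tested.

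Reads of 75 members, 47 of the large and 28 of the small subunit, were enough for a test among 13767 genes. The remaining 2 matched members were MRPL30, with 1 read in scramble run 2 and none elsewhere, and MRPS21, with no read in any table, where a count of 0 allows up to 3 reads per table.

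Upstream sequences are shown for 5 members, taken as the 250 bases before the RefSeq start (build GRCh38.p14). MRPS18A and MRPL14 were the members with the lowest ratio in their subunits and MRPL36 the one with the highest. MRPL46 and MRPS11 lie head to head and differed in ratio. For the first 3, capitals mark matches to 4 motifs searched on both strands: GCGCA, any base, then GCGC for NRF1; CCGGAAG for ETS factors; AA, any base, then ATGGCGG for YY1; and CCAAT. NRF1, the nuclear respiratory factor, is known for controlling nuclear genes of mitochondria.
MRPS18A (chr6:43687792-43688041, minus strand): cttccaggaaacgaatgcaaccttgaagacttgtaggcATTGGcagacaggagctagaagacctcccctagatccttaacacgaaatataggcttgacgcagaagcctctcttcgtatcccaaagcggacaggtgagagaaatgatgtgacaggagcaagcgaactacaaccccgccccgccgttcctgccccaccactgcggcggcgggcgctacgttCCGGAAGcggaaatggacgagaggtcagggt
MRPL14 (chr6:44127309-44127558, minus strand): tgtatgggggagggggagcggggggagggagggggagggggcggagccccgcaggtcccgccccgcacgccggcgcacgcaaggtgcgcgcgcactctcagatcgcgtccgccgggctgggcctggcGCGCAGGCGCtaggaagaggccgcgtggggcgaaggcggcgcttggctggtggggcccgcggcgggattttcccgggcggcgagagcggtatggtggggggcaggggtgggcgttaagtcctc
MRPL36 (chr5:1799838-1800087, minus strand): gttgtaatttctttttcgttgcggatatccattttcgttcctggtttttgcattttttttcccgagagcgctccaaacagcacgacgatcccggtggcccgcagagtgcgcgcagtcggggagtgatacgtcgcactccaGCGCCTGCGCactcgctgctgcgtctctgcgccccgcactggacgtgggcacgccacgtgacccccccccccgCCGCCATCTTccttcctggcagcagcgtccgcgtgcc
MRPS18A held 1 ETS and 1 CCAAT match, MRPL14 held 1 NRF1 match, and MRPL36 held 1 NRF1 and 1 YY1 match. The lowest and the highest member of the large subunit thus shared a motif. For the head-to-head pair, which held none of the 4 motifs, capitals mark the 181 bases that both windows contain, read from opposite strands, with 319 bases between the 2 starts.
MRPL46 (chr15:88467389-88467638, minus strand): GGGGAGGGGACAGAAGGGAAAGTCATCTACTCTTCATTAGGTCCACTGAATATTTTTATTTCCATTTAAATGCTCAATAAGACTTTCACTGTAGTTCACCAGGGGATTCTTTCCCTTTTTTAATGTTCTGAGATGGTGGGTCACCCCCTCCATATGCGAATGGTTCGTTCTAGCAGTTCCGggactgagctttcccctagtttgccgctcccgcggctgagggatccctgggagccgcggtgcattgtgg
MRPS11 (chr15:88467458-88467707, plus strand): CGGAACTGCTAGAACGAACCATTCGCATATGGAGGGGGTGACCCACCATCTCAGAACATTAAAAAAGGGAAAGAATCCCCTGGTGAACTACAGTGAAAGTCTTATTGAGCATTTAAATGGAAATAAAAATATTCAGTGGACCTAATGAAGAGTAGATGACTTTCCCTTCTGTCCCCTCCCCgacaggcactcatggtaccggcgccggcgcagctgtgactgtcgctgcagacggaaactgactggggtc

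Transcripts of the mitochondrial ribosome differed little between scramble and shFTO, and no member differed 2-fold, whereas 11.4% of all tested genes did. This was not particular to the members. None of 24 assembly factors, 15 translation factors and 20 mitochondrial tRNA synthetases differed 2-fold, nor did most nuclear respiratory chain genes (1 of 78 did) or cytosolic ribosomal protein genes (2 of 77). The members' pooled ratios, shFTO over scramble, ran from a log2 value of -0.76 for MRPS18A to 0.46 for MRPL36. Their median was -0.10, against 0.0093 over all tested genes. At least 1.2-fold lower were 20 members (27.5% of all tested genes were) and at least 1.2-fold higher were 3 (27.0% of all tested genes were), leaving 52 within 1.2-fold. The share lower was thus near that of all genes, and the share higher was below it. With edgeR (quasi-likelihood test, Benjamini-Hochberg adjusted p under 0.05), 38 members were called lower (33.4% of all tested genes), 12 higher (33.2%) and 25 neither. That test takes its spread from tables of 1 sample, so a call separates libraries, not conditions. Counting intervals of the ratio lay wholly below 1 for 39 members (34.5% of all tested genes) and wholly above 1 for 12 (34.6%).

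The direction of the median depended on how the libraries were scaled. With plain library size the median of all tested genes was 0.18, that of the members was 0.064, 8 members were at least 1.2-fold lower and 14 at least 1.2-fold higher. Of all 13767 tested genes, 2572 and 5776 then passed these thresholds, and 20 members changed sign. A scaling shifts every log2 ratio by the same constant, so it cannot alter the members' place among all genes: 51 of 75 members (68%) lay below the all-gene median, and the gap between the medians was -0.11. The members are short, with a median transcript length of 1126 bases against 2390 over all tested genes. A smooth trend on length, GC content and expression was also removed, over the 12230 genes of known length with at least 1 CPM, which left out MRPS24. The members' median was then 0.032 and that of those genes 0.036, with 11 members at least 1.2-fold lower and 9 at least 1.2-fold higher. The share of those genes past 1.2-fold was not counted. Fold values below are on the TMM scale unless stated.

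**Figure D1:**
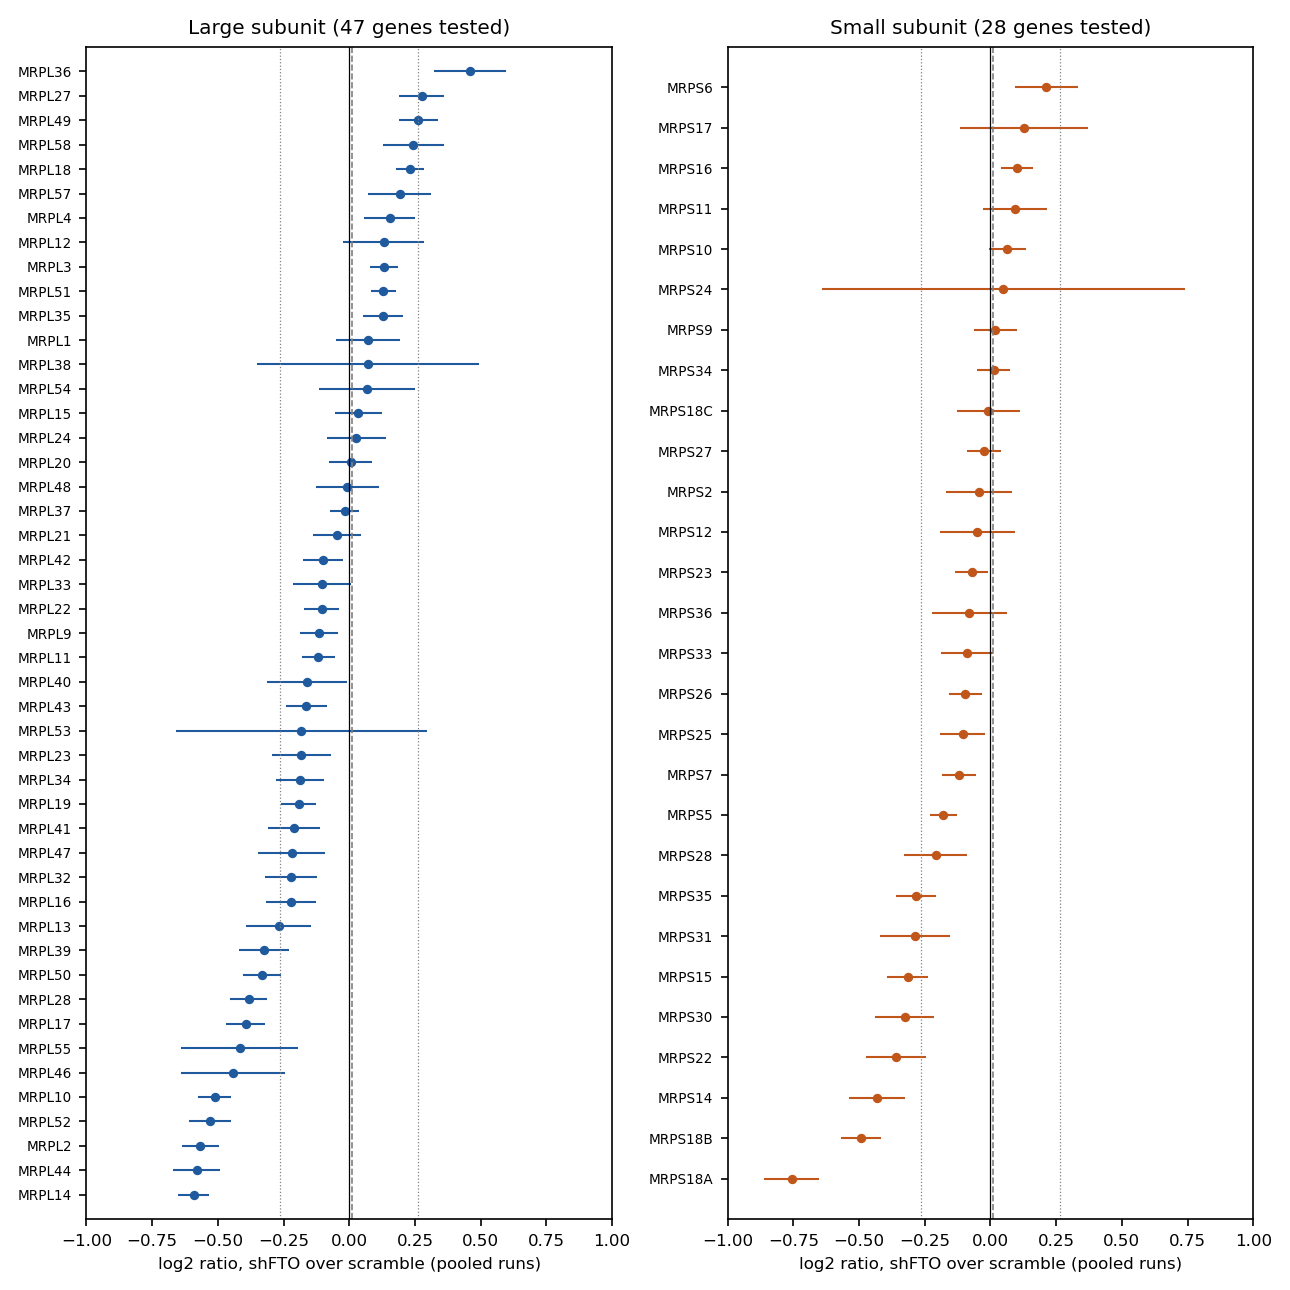
Log2 ratio of pooled TMM-scaled CPM, shFTO over scramble, for each tested member, large subunit left (n = 47) and small subunit right (n = 28). Points are ratios, bars are 95% counting intervals, dotted lines mark 1.2-fold, the dashed line is the median of all tested genes and the solid line is 0. Values run from -0.76 for MRPS18A to 0.46 for MRPL36.

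The large and small subunit medians lay close together. The median log2 ratio was -0.12 over the 47 large subunit genes and -0.085 over the 28 small subunit genes, which became 0.052 and 0.083 with plain library size. Quartiles were -0.245 and 0.071 in the large and -0.28 and 0.014 in the small subunit. In the large subunit 12 genes were at least 1.2-fold lower and 3 at least 1.2-fold higher, and in the small subunit 8 and 0 (27.5% and 27.0% of all tested genes). These counts became, with plain library size, 6 and 11 in the large and 2 and 3 in the small subunit. Summed over its genes, the large subunit took 2828 and 2813 CPM for scramble and 2600 and 2600 CPM for shFTO, 1.09-fold lower (1.08 to 1.09). The small subunit took 1613 and 1620 CPM against 1484 and 1474 CPM, 1.09-fold lower (1.08 to 1.11). With plain library size these sums were 1.04-fold and 1.03-fold higher.

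Reads of the 2 subunits stayed in proportion. Large subunit reads per small subunit read were 1.753 and 1.737 for scramble and 1.753 and 1.764 for shFTO. Pooled, the quotient was 1.75 (1.73 to 1.76) in scramble and 1.76 (1.74 to 1.78) in shFTO, and the runs of the groups overlapped. The quotient does not depend on scaling. As a share of all reads, the members took 0.419% and 0.418% in scramble and 0.432% in both shFTO tables.

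Symbols do not fully follow structure. In structures of the human particle, MRPS18A and MRPS30 sit in the large subunit, and MRPS36 is now regarded as a subunit of the oxoglutarate dehydrogenase complex. With MRPS18A and MRPS30 counted in the large subunit and MRPS36 left out, the medians were -0.12 for the large and -0.072 for the small subunit, a difference of -0.046 in place of -0.030.

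**Figure D2:**
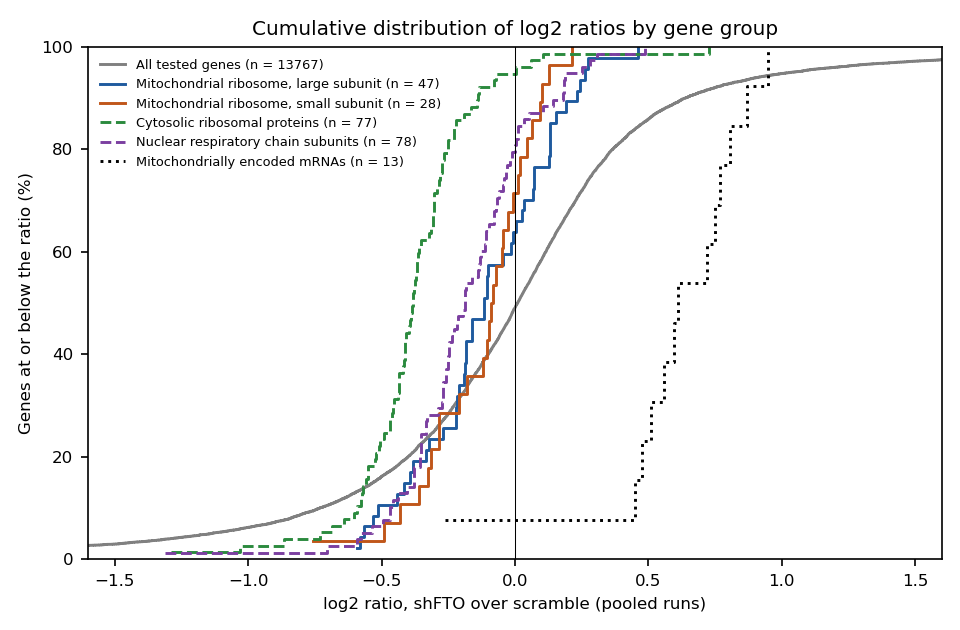
Cumulative percentage of genes at or below each log2 ratio, shFTO over scramble, for the members by subunit, for cytosolic ribosomal proteins, nuclear subunits of the respiratory chain, mitochondrially encoded mRNAs and all tested genes, with numbers of genes in the key. At the median the curves of both subunits lie between the all-gene curve and that of cytosolic ribosomal proteins, and both are steeper than the all-gene curve.

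The members' median lay above those of cytosolic ribosomal proteins and of nuclear subunits of the respiratory chain. Cytosolic ribosomal protein genes had a median log2 ratio of -0.38, with 61 of 77 at least 1.2-fold lower and 1 higher. Nuclear respiratory chain genes had a median of -0.19, with 27 of 78 at least 1.2-fold lower and 3 higher. Of all tested genes, 27.5% were lower and 27.0% higher by that rule. Plain library size gave 28 cytosolic genes lower and 2 higher, and 10 respiratory chain genes lower and 10 higher. The 2 medians were then -0.21 and -0.021, and after trend removal -0.125 and -0.077. Differences between these lists were not tested, as the genes of a list are not replicates.

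Levels per transcript length spanned a wide range within each subunit although the particle holds its proteins in fixed proportion. Per kilobase of transcript, the scramble level had a median of 42.9 CPM in the large and 41.5 CPM in the small subunit, with quartiles of 26.1 and 75.3 and of 18.8 and 56.4 CPM. MRPL51 was the most abundant large subunit transcript, at 302 CPM per kilobase in scramble and 331 in shFTO, with the next at 152 (MRPL14) and 160 (MRPL49). In the small subunit MRPS34 and MRPS5 had nearly the same scramble level of 100.2 CPM per kilobase and 101 and 88.5 in shFTO. The order of the members was almost the same in both groups, with a Pearson correlation of 0.986 for log2 levels over 75 genes. Both groups share gene length and counting in that correlation, and genes are not independent replicates.

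The lowest levels per kilobase were those of MRPL38 and MRPL53 in the large and MRPS24 and MRPS17 in the small subunit. MRPL38 had 50, 39, 51 and 55 reads in scramble runs 1 and 2 and shFTO runs 1 and 2, MRPL53 had 34, 42, 36 and 40, and MRPS24 had 20, 15, 17 and 24. MRPS17 had 114, 141, 174 and 142, near the 189, 177, 166 and 145 of MRPL55. In the annotation used for names (GENCODE release 29) these genes share 41.1%, 45.2%, 23.2% and 27% of their exonic bases with another listed gene, and MRPL30 19.5%. Among other members, MRPL12 shares 68.2% and had 305 to 396 reads, MRPS18A shares 47% and had 613 to 933, and MRPL51, the highest per kilobase, shares 31.3%. MRPS21, at 0 in every table, shares none in that release. The annotation used for counting is not known, so sharing there may differ. Counting can drop reads that fall on 2 genes, and its part in these levels was not tested. Over all matched members, 39 share some exonic base and 25 share over 10%. With those 25 left out the median was -0.11, with 15 members at least 1.2-fold lower and 2 higher.

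**Figure D3:**
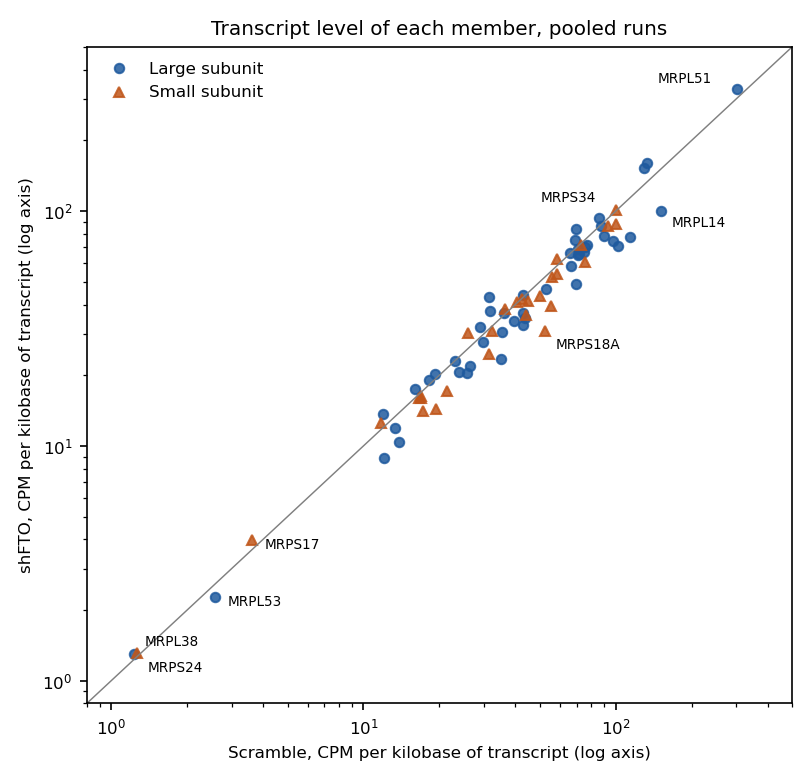
Level of each tested member in scramble (x axis) and shFTO (y axis), in TMM-scaled CPM per kilobase of transcript, both axes logarithmic, pooled runs, with the line of equal level. Scramble levels run from 1.23 CPM per kilobase for MRPL38 to 302 for MRPL51, the order is nearly the same in both groups (Spearman correlation 0.971), and MRPS18A and MRPL14 lie furthest below the line.

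Among large subunit genes the lowest ratio was that of MRPL14 (ENSG00000180992, chromosome 6), a conserved protein on the face where the subunits join. MRPL14 had 145.5 and 145.1 CPM for scramble and 93.9 and 98.8 CPM for shFTO, 1.51-fold lower (1.45 to 1.57). The runs of the groups did not overlap, which held in the lower direction for 40 members, or 26 of 47 in the large and 14 of 28 in the small subunit, and for 40.2% of all tested genes. In the higher direction it held for 12 and 3 members, against 41.4% of all tested genes. MRPL44, a mitochondria-specific protein with an RNase III fold, had 60.7 and 61.5 CPM against 39.1 and 42.6 CPM, 1.496-fold lower (1.41 to 1.59). MRPL2, a conserved protein near the peptidyl transferase centre, had 104.7 and 101.1 CPM against 70.4 and 68.6 CPM, 1.48-fold lower (1.41 to 1.55). MRPL2 shares 14.7% of its exonic bases with KLC4, which was 1.54-fold lower (1.45 to 1.63), so without a strand setting part of the reads of the pair cannot be told apart. MRPL14 and MRPL2 lie on chromosome 6, as do MRPS18A and MRPS18B. The 6 tested members there had a median log2 ratio of -0.53, though MRPL18 and MRPS10 had 0.23 and 0.064. Chromosomes 1, 2, 11 and 17, with 7 members each, had medians of -0.12, -0.18, -0.12 and 0.070. A part of location was not tested.

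Next in order were MRPL52, MRPL10 and MRPL46. MRPL52, a mitochondria-specific protein, had 75.1 and 76.7 CPM against 50.6 and 54.4 CPM, 1.44-fold lower (1.37 to 1.53). MRPL10, the base of the stalk that recruits elongation factors, had 120.2 and 119.8 CPM against 85.4 and 82.9 CPM, 1.43-fold lower (1.37 to 1.49). MRPL46, of the central protuberance, had 12.2 CPM in each scramble run and 8.97 and 8.94 CPM in the shFTO runs, 1.36-fold lower (1.19 to 1.56). None of these 6 large subunit genes had overlapping runs, and each was still lower with plain library size, from a log2 ratio of -0.42 for MRPL14 to -0.28 for MRPL46. The other 6 large subunit genes past 1.2-fold were MRPL55, MRPL17, MRPL28, MRPL50, MRPL39 and MRPL13, from 1.34-fold lower for MRPL55 (1.15 to 1.56) to 1.21-fold lower for MRPL13.

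On the higher side MRPL36 stood first. MRPL36 (ENSG00000171421, chromosome 5), a protein with a bacterial counterpart, had 19.4 and 18.5 CPM for scramble and 24.4 and 27.7 CPM for shFTO, 1.38-fold higher (1.251 to 1.51). MRPL27, which reaches towards the peptidyl transferase centre, had 51.0 and 52.1 CPM against 62.4 and 62.5 CPM, 1.21-fold higher (1.14 to 1.28). MRPL49 had 69.6 and 66.4 CPM against 81.0 and 82.0 CPM, 1.2-fold higher (1.14 to 1.26), just past the threshold. Just short of it lay MRPL58, a peptidyl-tRNA hydrolase built into the ribosome, with 28.3 and 28.1 CPM against 32.6 and 34.2 CPM, 1.18-fold higher (1.09 to 1.28). At the lower threshold MRPL13 was just inside at 1.21-fold lower (1.11 to 1.31) and MRPL16 just outside at 1.17-fold (1.09 to 1.246). MRPL49 shares 12.18% of its exonic bases with SYVN1, which had a ratio of 0.571 (0.536 to 0.608), and FAU, at 0.924 (0.897 to 0.9525). The limit given for MRPL2 applies to it as well.

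By place in the particle, the tunnel exit, where the new protein leaves towards the inner membrane, had 7 tested genes. Of these 3 were at least 1.2-fold lower (27.5% of all tested genes) and none higher, or 1 and none with plain library size, with a median log2 ratio of -0.22, which was -0.051 with plain library size and -0.086 after trend removal. They ran from MRPL44 through MRPL17, 1.31-fold lower (1.249 to 1.38), and MRPL39, 1.251-fold lower (1.17 to 1.34), to MRPL24, with a ratio of 1.02 (0.94 to 1.1). The central protuberance was split. Of its 9 genes MRPL46 and MRPL52 were at least 1.2-fold lower and MRPL27 at least 1.2-fold higher (median 0.070). With plain library size 2 were lower and 4 higher. MRPL18, which in bacteria carries the 5S RNA and stays in the mitochondrial particle, had a ratio of 1.17 (1.13 to 1.22). Of the 5 stalk genes MRPL10 alone was past 1.2-fold, and MRPL12, a stalk protein also known for binding mitochondrial RNA polymerase, had 17.0 and 15.8 CPM against 17.9 and 18.1 CPM, a ratio of 1.1 (0.98 to 1.22). MRPL12 shares 68.2% of its exonic bases with a gene that had no read.

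The 3 MRPS18 paralogs, all related to 1 bacterial protein, had different ratios. MRPS18A (ENSG00000096080, chromosome 6), which sits in the large subunit, had 48.3 CPM in both scramble tables and 28.7 and 28.6 CPM for shFTO, 1.69-fold lower (1.57 to 1.82). MRPS18B, also on chromosome 6, had 85.2 and 84.0 CPM against 61.2 and 59.0 CPM, 1.41-fold lower (1.34 to 1.48). MRPS18C, on chromosome 4, which takes the place of the bacterial protein, had 29.9 and 26.9 CPM against 29.1 and 27.4 CPM, a ratio of 0.995 (0.916 to 1.08), with overlapping runs. The intervals of the 3 ratios did not overlap. MRPS18A shares 47% of its exonic bases with RSPH9, which had 8, 11, 7 and 5 reads, and MRPS18C shares 40.2% with ABRAXAS1, which was 1.55-fold lower (1.39 to 1.73).

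**Figure D4:**
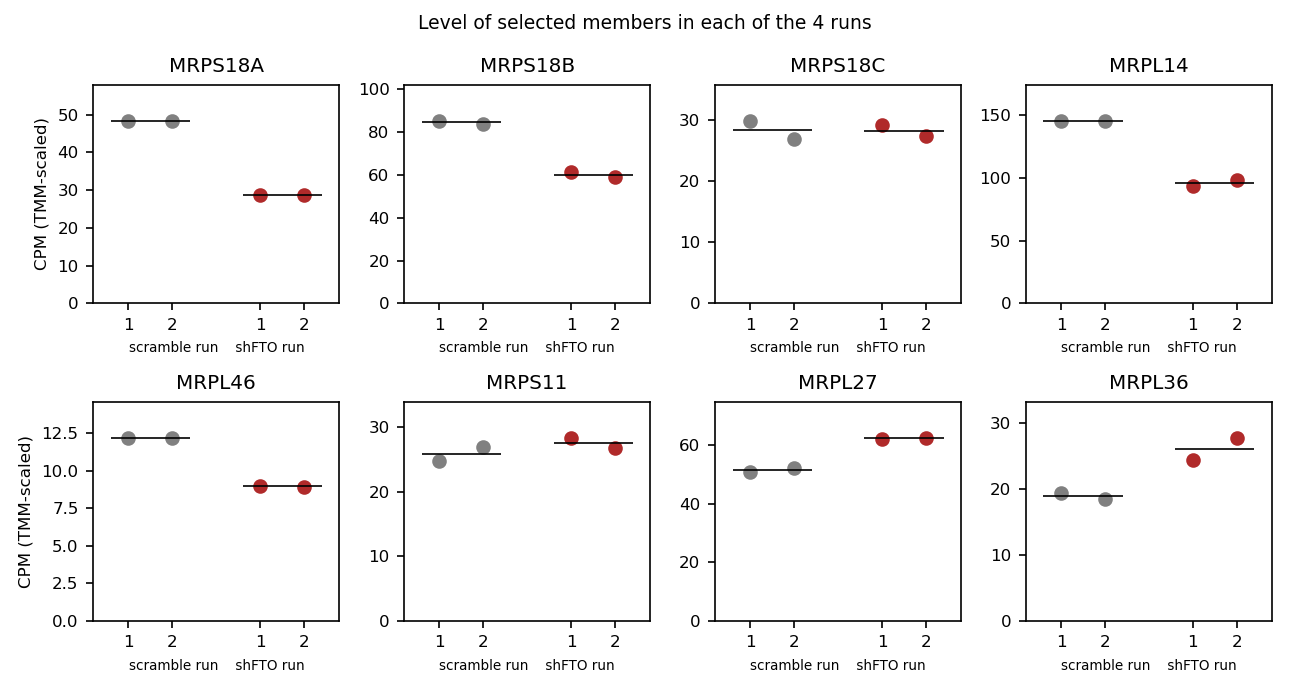
Level in TMM-scaled CPM in each run for 8 members, scramble runs in grey, shFTO runs in red, horizontal bars for the pooled level, y axes from 0. MRPS18A, MRPS18B, MRPL14 and MRPL46 lie lower in both shFTO runs, MRPL27 and MRPL36 higher, and MRPS18C and MRPS11 overlap.

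The other low members of the small subunit lay between 1.22-fold and 1.35-fold below scramble. MRPS14, a conserved protein of the head, had 40.4 and 41.3 CPM against 31.0 and 29.6 CPM, 1.35-fold lower (1.252 to 1.45). MRPS22, a mitochondria-specific protein known from inherited respiratory chain disease, had 34.4 and 35.7 CPM against 27.3 and 27.4 CPM, 1.28-fold lower (1.19 to 1.39). MRPS22 shares 6.99% of its exonic bases with PRR23A, which had no read, and COPB2, which was 1.36-fold lower (1.325 to 1.4). MRPS14 shares 13.53% with CACYBP, which had a ratio of 1.18 (1.14 to 1.21). The limit given for MRPL2 applies to both. MRPS30, placed in the large subunit by structure, had 36.7 and 35.3 CPM against 28.0 and 29.4 CPM, 1.254-fold lower (1.16 to 1.36). MRPS15, of the platform, was 1.24-fold lower (1.18 to 1.31), and MRPS31 and MRPS35, of the head, were each 1.22-fold lower (1.11 to 1.34 and 1.16 to 1.28). With plain library size only MRPS18A and MRPS18B of the small subunit members were still at least 1.2-fold lower, MRPS14 having a ratio of 0.834.

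Small subunit genes on the higher side did not reach 1.2-fold. MRPS6 had the highest ratio, with 25.4 and 26.1 CPM against 29.9 and 29.8 CPM, 1.16-fold higher (1.07 to 1.26). After it came MRPS17, with a ratio of 1.09 (0.92 to 1.29), MRPS16, known from inherited respiratory chain disease, at 1.07 (1.03 to 1.12), and MRPS11 at 1.07 (0.98 to 1.16). MRPS6 shares 6.35% of its exonic bases with SLC5A3, which was 1.46-fold higher (1.32 to 1.62). MRPS16 shares 14.85% with DNAJC9, at 1.24 (1.08 to 1.42), and DNAJC9-AS1, at 0.789 (0.385 to 1.6). The genes sharing with MRPS17 include NIPSNAP2, at 0.865 (0.81 to 0.924). The limit given for MRPL2 applies here too. Genes of the decoding site and mRNA channel varied least. All 5 tested were within 1.2-fold, from MRPS5, 1.13-fold lower (1.09 to 1.17), to MRPS11, and MRPS12, which lines the decoding site, had a ratio of 0.966 (0.875 to 1.07), or 1.09 with plain library size. In the head 3 of 7 genes and in the body and platform 2 of 11 were at least 1.2-fold lower, with none higher. Of all tested genes 27.5% were lower and 27.0% higher. With plain library size none was lower and 3 in the body and platform were higher. Of all 13767 tested genes, 2572 were then lower and 5776 higher.

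Conserved and mitochondria-specific members were also compared. In the large subunit the median log2 ratio was -0.12 for 29 genes with a bacterial counterpart and -0.13 for 18 without. In the small subunit it was -0.0079 for 15 with a counterpart and -0.10 for 10 without. At least 1.2-fold lower were 2 and 4 of them (27.5% of all tested genes). With plain library size the 4 medians were 0.052, 0.037, 0.16 and 0.067. Differences between these groups were not tested.

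MRPL46 and MRPS11, whose upstream sequences are printed above, start from opposite strands of 1 stretch of chromosome 15 and differed in ratio. MRPL46 was 1.36-fold lower, while MRPS11, a conserved protein of the small subunit, had 24.8 and 26.9 CPM in scramble and 28.3 and 26.8 CPM in shFTO. Their intervals, 0.641 to 0.844 and 0.979 to 1.16, did not overlap. In all, 16 tested members have a protein-coding gene head to head within 1000 bases. Of 15 comparisons with a tested partner, counting the MRPL46 and MRPS11 pair from each side, intervals of the ratios did not overlap in 10 and overlapped in 5. The share among other gene pairs was not counted, so these numbers are no result about facing genes. Over all tested genes, intervals lay wholly below 1 for 34.5% and wholly above 1 for 34.6%. MRPL36 faces NDUFS6, a respiratory complex I subunit with a ratio of 1.04 (1.001 to 1.07), and MRPL27 faces EME1 at 0.991 (0.903 to 1.09). MRPL41 had a ratio of 0.865 (0.808 to 0.926), whereas PNPLA7 facing it was 4.55-fold lower (3.47 to 6.05).

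Upstream motifs were counted in 69 members found in the RefSeq table. The ETS letters CCGGAAG were in 23 of 69 member windows (33.3%), in 16.5% of the windows of tested protein-coding genes and in 8.8% of all windows. The NRF1 letters were in 8 of 69 (11.6%) against 10.7% of tested genes and 5.5% of all, the YY1 letters in 3 (4.3%) against 1.3% and 0.8%, and CCAAT in 19 (27.5%) against 35.2% and 33%. Tested members with the ETS letters had a median log2 ratio of -0.008 (n = 21, 3 at least 1.2-fold lower and 1 higher), and those without had -0.12 (n = 45, 14 lower and 2 higher). Of all tested genes 27.5% were lower and 27.0% higher. Medians with and without the letters were -0.036 (n = 6) and -0.104 for NRF1 and -0.22 (n = 3) and -0.101 for YY1. For CCAAT they were -0.107 (n = 18) and -0.103. Differences by motif were not tested. A match is a description of letters and not a binding site.

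Among 5 ribosomal proteins whose symbols fall outside the rule, DAP3, PTCD3, AURKAIP1, CHCHD1 and GADD45GIP1, 2 were at least 1.2-fold lower and 3 within 1.2-fold. Their median log2 ratio was -0.26, or -0.090 with plain library size, where 1 was at least 1.2-fold lower. On the TMM scale edgeR called all 5 lower (33.4% of all tested genes), but with plain library size the ratio of CHCHD1 was 1.002. GADD45GIP1, of the large subunit, had 101.8 CPM in scramble and 70.7 CPM in shFTO, 1.44-fold lower (1.37 to 1.51), and AURKAIP1, of the small subunit, was 1.29-fold lower (1.24 to 1.34). OXA1L, the inner membrane insertase that docks on the tunnel exit, went from 326.2 to 185.2 CPM, 1.76-fold lower (1.71 to 1.81).

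Of 24 tested assembly factors 5 were at least 1.2-fold lower and 5 at least 1.2-fold higher (27.5% and 27.0% of all tested genes), with a median log2 ratio of 0.042. Plain library size gave 2 lower and 11 higher, with a median of 0.21. NOA1 and METTL17, which act in small subunit assembly, were 1.47-fold (1.37 to 1.58) and 1.44-fold lower (1.34 to 1.55). MALSU1, the factor that binds MRPL14, was 1.24-fold lower (1.17 to 1.32), and RPUSD4, a pseudouridine synthase for the large ribosomal RNA, was 1.22-fold lower (1.17 to 1.29). MRM2, which methylates the large ribosomal RNA, was 1.24-fold higher (1.17 to 1.32), MTERF4 1.23-fold (1.16 to 1.3), the helicase DHX30 1.22-fold (1.16 to 1.27) and the GTPase MTG2 1.21-fold higher (1.14 to 1.28). Of 15 translation factors 2 were at least 1.2-fold lower and 1 higher, or 0 and 4 with plain library size. These were MTRF1, 1.23-fold lower (1.1 to 1.38), the initiation factor MTIF3, 1.22-fold lower (1.1 to 1.36), and GUF1, a ribosome-binding GTPase, 1.37-fold higher (1.29 to 1.45). Their median was -0.060, or 0.11 with plain library size. The elongation factor TUFM, the most abundant of the list at 617.2 CPM in scramble, was 1.17-fold lower (1.15 to 1.19).

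The list of mitochondrial tRNA synthetases included the amidotransferase that completes glutaminyl-tRNA. Of 20 genes 10 were at least 1.2-fold lower and 1 higher (27.5% and 27.0% of all tested genes). With plain library size 6 were lower and 3 higher, against 2572 and 5776 of all 13767 tested genes. Their median log2 ratio was -0.25, or -0.086 with plain library size and -0.27 after trend removal. The amidotransferase subunits GATB and GATC were 1.52-fold (1.42 to 1.63) and 1.46-fold lower (1.31 to 1.63). The subunit QRSL1 was within 1.2-fold, with a ratio of 0.892 (0.815 to 0.976), or 1.002 with plain library size. Among the synthetases NARS2 was 1.45-fold lower (1.38 to 1.54) and VARS2 1.44-fold lower (1.38 to 1.5), while MARS2 was 1.34-fold higher (1.22 to 1.48).

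Of the 2 ribosomal RNAs that the proteins assemble with, 1 was at least 1.2-fold higher, and both were with plain library size. The small subunit ribosomal RNA, MT-RNR1, had 13139 and 13292 reads for scramble and 26901 and 27671 in shFTO, 1.82-fold higher (1.79 to 1.85). The large subunit ribosomal RNA, MT-RNR2, had 95618 and 98589 reads against 127005 and 130180, with a ratio of 1.17 (1.16 to 1.17), within 1.2-fold on the TMM scale and 1.31 with plain library size. Whether the libraries selected polyadenylated RNA is not given in the sources used here, so these 2 levels cannot be read as amounts of ribosome. MT-TV, the valine tRNA that is part of the human large subunit, had no read. Of the 13 mitochondrially encoded mRNAs, which the particle translates, 12 were at least 1.2-fold higher (27.0% of all tested genes) and MT-ND3 was 1.2-fold lower (1.18 to 1.22), just short of the threshold, with a median log2 ratio of 0.61.

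Near-identical copies hold few reads. The tables list 69 pseudogenes of 33 members, of which 7 had any read, and together they held 34, 38, 31 and 44 reads in scramble runs 1 and 2 and shFTO runs 1 and 2, or at most 0.0492% of the members' reads. Of these reads 131 fell on MRPL45P2, a copy of the member that was not matched. Reads lost to such copies because they map to several places are not in these counts.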

How the data were processed

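Count tables from Hep-G2 total RNA, 2 per group, were analysed. The authors deposited raw read counts per Ensembl gene, without normalization. TopHat2 2.1.1, HTSeq 0.6.0 and build hg19 were listed, per the submitters' processing notes, while annotation release and strandedness are not given in the sources used here. Symbols, types, lengths, GC content, exon sharing and neighbours came from GENCODE release 29 (GRCh38) by Ensembl identifier (51537 of 62893 with a symbol), and no hg19 coordinates are given. Transcript length is the median over basic protein-coding transcripts.

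Runs of a group were pooled, since the chi-square test over genes with at least 20 reads found no difference beyond sampling. Ratios are of pooled CPM scaled by TMM, with 95% Clopper-Pearson intervals, and a change of 1.2-fold was the rule of size. edgeR 4.0.16 (R 4.3.3; filterByExpr, quasi-likelihood test, two-sided, adjusted p under 0.05, 2 residual degrees of freedom) was fitted to all 13767 genes. DESeq2 1.42.0, limma 3.58.1 (voom) and mgcv 1.9.3 (trend over 12230 genes of at least 1 CPM, 3.87% of deviance explained) were alternatives. Fully described are, in each subunit, the 6 lowest and 4 highest ratios among genes averaging 5 CPM or more, the extremes of level, the MRPS18 paralogs, and up to 4 genes each way per list. Members and lists were chosen with earlier results of these data known. OXA1L was taken out of the list of subunits after the values were seen, the ribosomal RNAs were added, and leaving out members that share exons was added as an alternative. On simulated counts for 13308 genes without variation beyond sampling, edgeR called 0.1% of unchanged genes, 58% of 50 changed 1.25-fold and 90% of 50 changed 2-fold.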

Additional observations from a re-analysis of the deposited data

How the results depend on the processing

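Scaling moved every ratio by the same amount and so decided directions near 0. The members' median of -0.10 became -0.11 with relative log expression scaling. With upper quartile scaling it was -0.057 (large subunit -0.069, small -0.039) with 5 members at least 1.2-fold higher (31.0% of all tested genes). With plain library size it was 0.064 (large 0.052, small 0.083), with 8 members at least 1.2-fold lower and 14 higher. Of all tested genes 2572 were then at least 1.2-fold lower and 5776 higher, in place of 3789 and 3720. On that scale edgeR called 18 members lower and 29 higher, and 22.1% and 48.7% of all tested genes. Without a filter on low counts, which changed the scaling, the medians were -0.12 and, for the large subunit, -0.13, with 1 member at least 1.2-fold higher in place of 3. Removing the trend gave medians of 0.032 (large 0.013, small 0.034), with 11 members at least 1.2-fold lower and 9 higher. DESeq2 called 29 members lower and 7 higher in place of 38 and 12. Of all tested genes it called 3624 lower and 3256 higher, in place of 4594 and 4576.

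Leaving out each run in turn gave medians of -0.12 to -0.10 for all members and -0.12 to -0.080 for the small subunit, and a large minus small difference of -0.039 to 0.00082, the last without shFTO run 2. That difference, -0.030 with all runs, was thus not detectable beyond the spread between runs. The correlation over genes of the deviations of same-numbered runs was 0.0016. Runs of a group did not differ beyond sampling noise, so this value cannot show whether same-numbered runs were paired. With the replicate number as a block edgeR still called 38 members lower and 12 higher (4610 and 4606 of all tested genes). Depth limits MRPL38, MRPL53, MRPS24 and MRPS17, whose intervals each hold a ratio of 1 and reach past 1.2-fold in at least 1 direction.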
